A study of Mus musculus with 6 samples.

Results

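Cdc42, its Borg effectors and the WASP proteins were followed in mouse megakaryocytes with lowered Gata-1. The 8 genes are Cdc42, the Borg genes Cdc42ep1 to Cdc42ep5, and Was and Wasl, which encode WASP and N-WASP. All probe sets whose platform annotation named only one of these genes were taken, which gave 18 of the 34945 probe sets that named 1 gene, and 8 of 18193 genes. The genes were chosen with their values in this same contrast already known, so the counts, levels and fold changes of the 8 genes below are a description, and no p-value is given for them.

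Of the 6 samples, 3 carried a Gata-1 knock down and 3 were wild type, both sets lettered A, B and C, and each was read on 1 Affymetrix mouse array. In both groups, per the labels, megakaryocytes were grown in culture from progenitors of embryonic day 13.5 fetal livers and then collected on an albumin gradient. GATA1 is a DNA-binding factor without which megakaryocytes and red cells do not mature normally. The labels give neither the strain nor the way in which Gata-1 was lowered, nor whether replicates were grown from separate animals, so p-values cover the spread between these 6 samples alone, and that spread may be technical.

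Cdc42 is a small GTPase that is active when bound to GTP. Exchange factors load it with GTP, GTPase-activating proteins switch it off, and GDP dissociation inhibitors hold it in the cytosol. Active Cdc42 binds the Borg proteins, which bind septin filaments, and it opens WASP and N-WASP, which turn on the actin-nucleating Arp2/3 complex. In megakaryocytes Cdc42 is known for its part in cell polarity, the demarcation membrane and platelet release, and mutations of WAS in humans cause Wiskott-Aldrich syndrome, with few and small platelets.

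The sequence upstream of a gene's start is shown for the Borg genes with the largest rise and the largest fall and for the one other gene with a match, because GATA factors bind DNA through GATA letters. The windows are the 250 bases before the start in RefSeq's GRCm38.p6 annotation, which held 9 promoters of the 8 genes. The letters AGATAA were searched on both strands, as were the same letters ending in G, beginning with T, or both, and capitals mark each match in the lines that follow.
Cdc42ep2: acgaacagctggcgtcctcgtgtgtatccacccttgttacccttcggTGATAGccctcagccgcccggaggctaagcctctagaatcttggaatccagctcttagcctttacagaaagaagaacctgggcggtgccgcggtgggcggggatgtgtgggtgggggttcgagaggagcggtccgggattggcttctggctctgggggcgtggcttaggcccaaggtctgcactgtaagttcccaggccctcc
Cdc42ep5: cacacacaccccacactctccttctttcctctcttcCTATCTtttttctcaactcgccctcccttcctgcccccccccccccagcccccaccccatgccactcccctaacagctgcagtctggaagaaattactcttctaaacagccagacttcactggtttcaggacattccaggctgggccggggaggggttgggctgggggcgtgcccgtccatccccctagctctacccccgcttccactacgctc
Cdc42ep1: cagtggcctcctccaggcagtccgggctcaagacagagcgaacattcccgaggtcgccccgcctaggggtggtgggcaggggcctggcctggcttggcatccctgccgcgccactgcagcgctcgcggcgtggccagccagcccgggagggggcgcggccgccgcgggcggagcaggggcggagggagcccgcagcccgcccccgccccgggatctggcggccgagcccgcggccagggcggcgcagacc

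The Cdc42ep2 window is chr19:5924817-5925066 on the minus strand, with TGATAG first met 203 bases before the start. The Cdc42ep5 window is chr7:4164706-4164955 on the minus strand, with CTATCT, the reverse complement of AGATAG, at 214 bases before the start. The Cdc42ep1 window is chr15:78842397-78842646 on the plus strand, held none of the letters searched, and had a GC content of 79.2%, against 61.2% for Cdc42ep2 and 60.4% for Cdc42ep5. A match was found in 2 of the 9 windows of these genes, in 18.5% of the 14543 windows of all tested genes and in 26.5% of all 32851 windows. A match in this window is a description of its letters and not a binding site.

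The values are signals on a linear scale, as deposited, and fold changes come from limma on log2(signal + 32) after quantile normalization. Gata1 itself read 153.5, 143.3 and 194.7 in knockdown A, B and C, against 8723.7, 8246.5 and 8495.6 in wild type A, B and C. Its log2 fold change was -5.52 ± 0.12 (SE, n = 3 each), which is 45.9-fold lower (adjusted p 2.89e-09, limma). Every knockdown array read Gata1 above its background, taken as the highest of 27 bacterial control probe sets. That background was 82.2, 132 and 79.8 on knockdown A, B and C, and 60.7 to 65.8 on the wild-type arrays, and knockdown B also had the highest array median, 137.8, against 101.6 to 118.4 on the other arrays. Correlations of log2 values between arrays were 0.966 to 0.974 within knockdown, 0.979 within wild type and 0.945 to 0.957 between the groups. All 22 tested megakaryocyte and platelet markers were above background on all 6 arrays, and 18 of them were lower in knockdown.

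Cdc42 itself changed little, with values of 0.04 to 0.38 on the log2 scale, while the 5 Borg genes split, with Cdc42ep1 and 1 of 2 probe sets of Cdc42ep4 higher and Cdc42ep2, Cdc42ep3 and Cdc42ep5 lower in knockdown. Neither Was nor Wasl was called. A probe set was called when its limma adjusted p, over all 31526 probe sets tested, was below 0.05. Of the 18 probe sets of these genes, 16 passed the filter on dim signals, and of these 5 were called higher, 4 lower and 7 not called. Over all probe sets 30.4% were called, 16.1% higher and 14.3% lower. The deposited signals of 12 of the 16 did not overlap between the groups, against 46% of all probe sets tested. The median log2 fold change of the 16 was 0.08, against 0.04 over all probe sets, and 4 of the 16 changed by over 2-fold, against 6.96% of all. Since the genes were chosen from this contrast, nothing is read from these shares.

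**Figure D1:**
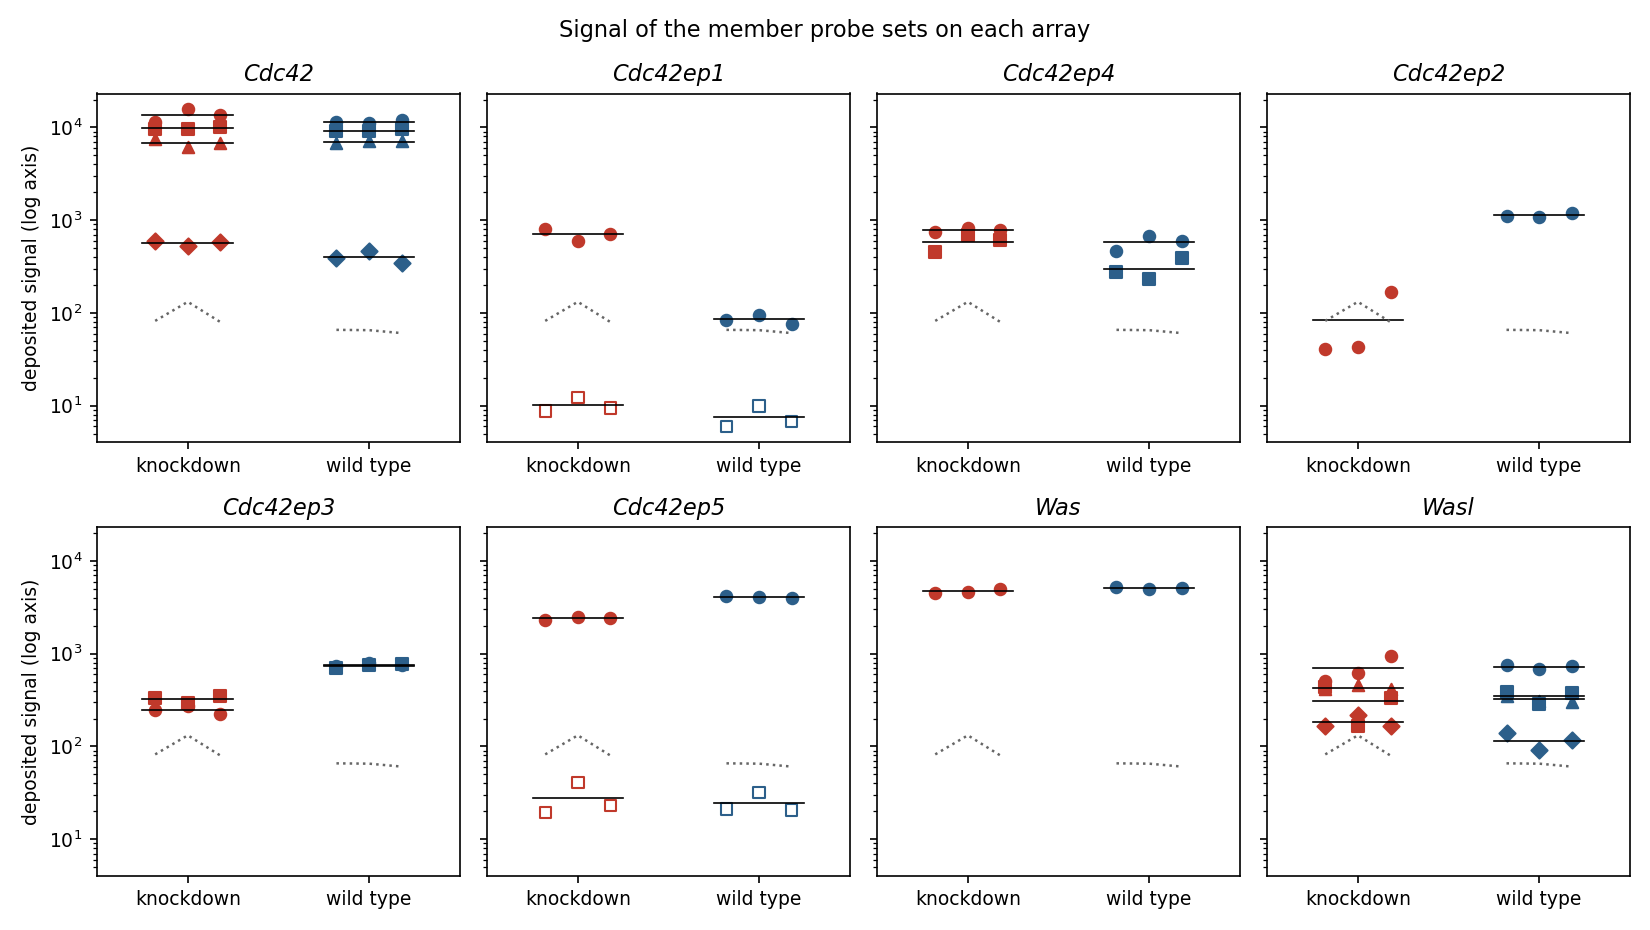
Deposited signal (log axis) of each of the 18 probe sets on each array, knockdown (red) left of wild type (blue), with arrays A, B and C from left to right in each group. Symbol shapes stand for the probe sets of a gene, open symbols for the 2 left out of the test, black lines for group means and dotted lines for the highest bacterial control on each array. The knockdown points of Cdc42ep1 lie far above and those of Cdc42ep2 far below their wild-type points.

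Cdc42, the GTPase at the centre of the group, had 4 probe sets. Its brightest, 1449574_a_at, read 11581.4, 15692.8 and 13728.9 in knockdown A, B and C, against 11498.3, 11257.8 and 11967.7 in wild type A, B and C. Knockdown A lay within the range of the wild-type arrays, and the spread was wider in knockdown, with means of 13668 ± 2056 in knockdown and 11575 ± 361 in wild type (n = 3 arrays each, ± SD). The fitted log2 fold change was 0.18 ± 0.05 (SE), called higher.

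The 1460708_s_at probe set of Cdc42 read 9658.4, 9750.8 and 10009.3 in knockdown, against 9104.2, 9071.6 and 9516 in wild type. The groups did not overlap, but the gap between the lowest knockdown and the highest wild-type array was small, and the log2 fold change was 0.13 ± 0.04, called higher, turning to -0.11 with arrays centred on their medians. The dimmest, 1435807_at, read 599.7, 525.5 and 576.9 in knockdown, against 395.8, 470.5 and 348.8 in wild type, with no overlap and a log2 fold change of 0.38 ± 0.12, called higher. The fourth, 1415724_a_at, read 7481.6, 6178.8 and 6813 in knockdown, against 6853, 7147.6 and 7145.4 in wild type, where the groups overlapped and the log2 fold change was 0.04 ± 0.07, not called. Each of the 3 calls of Cdc42 was lost in 9 of 15 alternative settings, so the level of Cdc42 was not firmly separated between the groups.

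Cdc42ep1, also called Borg5 or MSE55, showed the largest rise among the 8 genes. Its probe set 1424376_at read 810.7, 598.2 and 715.4 in knockdown A, B and C, against 84.7, 95.8 and 76 in wild type A, B and C. The lowest knockdown array was several times the highest wild-type array, and the wild-type signals lay only just above the bacterial controls of their arrays. Means were 708 ± 106 in knockdown and 85.5 ± 9.92 in wild type (n = 3 arrays each, ± SD), a ratio of 8.28 as deposited. The fitted log2 fold change was 2.52 ± 0.15 (SE), or 5.74-fold higher, and lay between 2.03 and 2.87 over the 15 alternatives. A further Cdc42ep1 probe set, 1442512_at, read 8.8, 12.3 and 9.5 in knockdown, against 6, 9.9 and 6.8 in wild type, at or below background on all 6 arrays, and was not tested.

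Cdc42ep1 was first described in marrow stromal and endothelial cells, so markers of these cells were read beside it. Of 13 tested stromal and endothelial markers, 2 were higher and 2 lower in knockdown, and their summed deposited signal was 4965 to 6412 on the knockdown arrays, against 6716 to 6996 on the wild-type arrays. The higher markers were the receptors Tek, at 693.7, 696.9 and 737 in knockdown against 242.6, 130.9 and 251.6 in wild type, and Kdr, at 1822.8, 2572.5 and 2113.1 in knockdown against 817.2, 631.5 and 709.9 in wild type. The lower markers were Pecam1, with a log2 fold change of -1.79 ± 0.07 (SE), which megakaryocytes also express, and Lyve1, with -0.92 ± 0.14. The lower knockdown sum rested on Pecam1: without it, a step chosen after the values were seen, the other 12 markers summed to 3858 to 5219 on the knockdown arrays, against 2436 to 2630 on the wild-type arrays. That higher knockdown sum leaned in turn on Kdr and Tek, the only markers of the list called higher. The endothelial cadherin Cdh5 was at or below background on all 3 knockdown arrays and on 2 of 3 wild-type arrays, and the part of such cells in the Cdc42ep1 signal was not tested further. In a bulk sample fewer cells of a type and less RNA per cell cannot be told apart.

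Cdc42ep4, also called Borg4, was higher on its 1416511_a_at probe set, which read 454.5, 691.5 and 619 in knockdown, against 275.7, 231.8 and 389.2 in wild type. All knockdown arrays lay above all wild-type arrays, although both groups were spread out, with means of 588 ± 121 in knockdown and 298.9 ± 81.2 in wild type (n = 3 arrays each, ± SD). The log2 fold change was 0.83 ± 0.20 (SE), called higher, and the call was lost in 1 of 15 alternatives, the fit without an intensity trend. Its 1436801_x_at probe set read 747.3, 814.8 and 777.3 in knockdown, against 469.1, 682.2 and 590.2 in wild type. The groups did not overlap there either, but the log2 fold change of 0.35 ± 0.13 was not called, and it was called in 4 of 15 alternatives.

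Cdc42ep2, also called Borg1, showed the largest fall. Its 1 probe set, 1428750_at, read 40.6, 43.5 and 170.4 in knockdown A, B and C, against 1105.9, 1086.5 and 1191.4 in wild type A, B and C. The wild-type arrays lay close together and far above background, while knockdown A and B were below the bacterial controls of their arrays and knockdown C above them. Means were 84.8 ± 74.1 in knockdown and 1128 ± 55.8 in wild type (n = 3 arrays each, ± SD). With the 2 arrays below background set to their bacterial control signal, Cdc42ep2 was at least 7.96-fold lower in knockdown. The fitted log2 fold change was -3.56 ± 0.34 (SE), a value that depends on signals not above background.

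Cdc42ep3, also called Borg2, was lower on both of its probe sets. The 1450700_at probe set read 244.9, 273.7 and 225.6 in knockdown, against 730.1, 786.9 and 762.6 in wild type, a log2 fold change of -1.59 ± 0.11 (SE, n = 3 each), which is 3.02-fold lower. The 1422642_at probe set read 335, 297.4 and 354.1 in knockdown, against 707.8, 762.6 and 766.5 in wild type, a log2 fold change of -1.20 ± 0.11, or 2.30-fold lower. On both probe sets the groups lay far apart and the arrays within a group close together.

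Cdc42ep5, also called Borg3, fell less, with the smallest standard error of the tested Borg probe sets. Its 1418712_at probe set read 2309.3, 2477.8 and 2423 in knockdown, against 4157.5, 4073.1 and 4026.5 in wild type. Means were 2403 ± 85.9 in knockdown and 4086 ± 66.4 in wild type (n = 3 arrays each, ± SD), and the log2 fold change was -0.70 ± 0.06 (SE), which is 1.62-fold lower. Its other probe set, 1430018_at, read 19.3 to 40.8 in knockdown and 20.6 to 31.8 in wild type, at or below background on all 6 arrays, and was not tested. The 4 lower calls of Cdc42ep2, Cdc42ep3 and Cdc42ep5 were kept in all 15 alternatives.

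Was encodes WASP, the form of the protein found in blood cells. Its 1 probe set, 1419631_at, read 4511.4, 4665 and 4945.8 in knockdown, against 5261.8, 4968.4 and 5169.2 in wild type. Every knockdown array was below every wild-type array as deposited, by little, with means of 4707 ± 220.3 in knockdown and 5133 ± 150 in wild type (n = 3 arrays each, ± SD). After quantile normalization the log2 fold change was -0.03 ± 0.05 (SE), not called, and with arrays centred on their medians it was -0.32 and called lower.

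Wasl encodes N-WASP, the widely expressed relative, and none of its 4 probe sets was called. The brightest, 1426776_at, read 511.7, 627 and 957 in knockdown, against 757.9, 680.8 and 741 in wild type, so that the knockdown arrays lay on both sides of wild type and the log2 fold change was -0.16 ± 0.19 (SE, n = 3 each). Without knockdown C it was -0.40 and was called lower, and without knockdown A it was 0.05. Of the others, 1452193_a_at read 439, 166.6 and 329.4 in knockdown, against 390.8, 288.5 and 378.9 in wild type, with overlapping groups and a log2 fold change of -0.40 ± 0.30, which was -0.69 without knockdown A and 0.0066 without knockdown B.

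The remaining Wasl probe sets stood the other way round, with every knockdown array above every wild-type array. The 1426777_a_at probe set read 418.2, 456 and 420.6 in knockdown, against 353.9, 306.1 and 304.1 in wild type, a log2 fold change of 0.29 ± 0.12, and 0.39 with a call with the values as deposited. The 1432155_at probe set read 165.5, 220.5 and 164.7 in knockdown, against 140.5, 90.7 and 116.9 in wild type, a log2 fold change of 0.38 ± 0.20. The 4 probe sets of Wasl thus gave values of both signs.

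**Figure D2:**
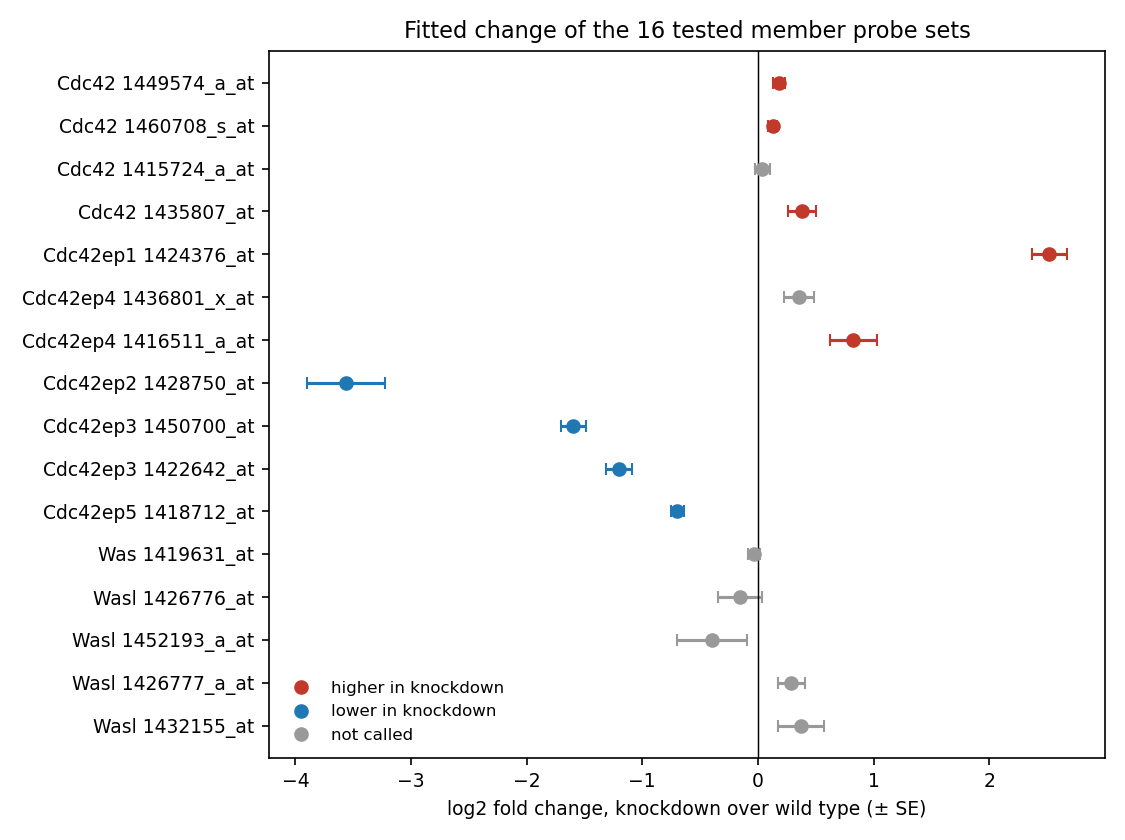
Log2 fold change of knockdown over wild type with its standard error for the 16 tested probe sets of the 8 genes (n = 3 arrays each), coloured by call. The values run from -3.56 for Cdc42ep2 to 2.52 for Cdc42ep1, with those of Cdc42, Was and Wasl between -0.40 and 0.38.

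The scaling of the arrays moved the fitted values, by amounts that differed between probe sets, and changed the calls of some small changes. The median log2 fold change of all probe sets was 0.04 after quantile normalization, 0.15 with the values as deposited and -0.05 with arrays centred on their medians, and 52.9%, 60.0% and 32.9% of the calls were higher in knockdown. Over these settings Cdc42ep1 lay between 2.45 and 2.65 and the 1416511_a_at probe set of Cdc42ep4 between 0.72 and 0.91, called higher in each. Cdc42ep2, Cdc42ep3 and Cdc42ep5 were lower in each, with Cdc42ep5 at -0.76 as deposited and -0.95 with median centring. The 1415724_a_at probe set of Cdc42 was at -0.05 as deposited and -0.25 with median centring, and none of the 4 Cdc42 probe sets was called with median centring.

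**Figure D3:**
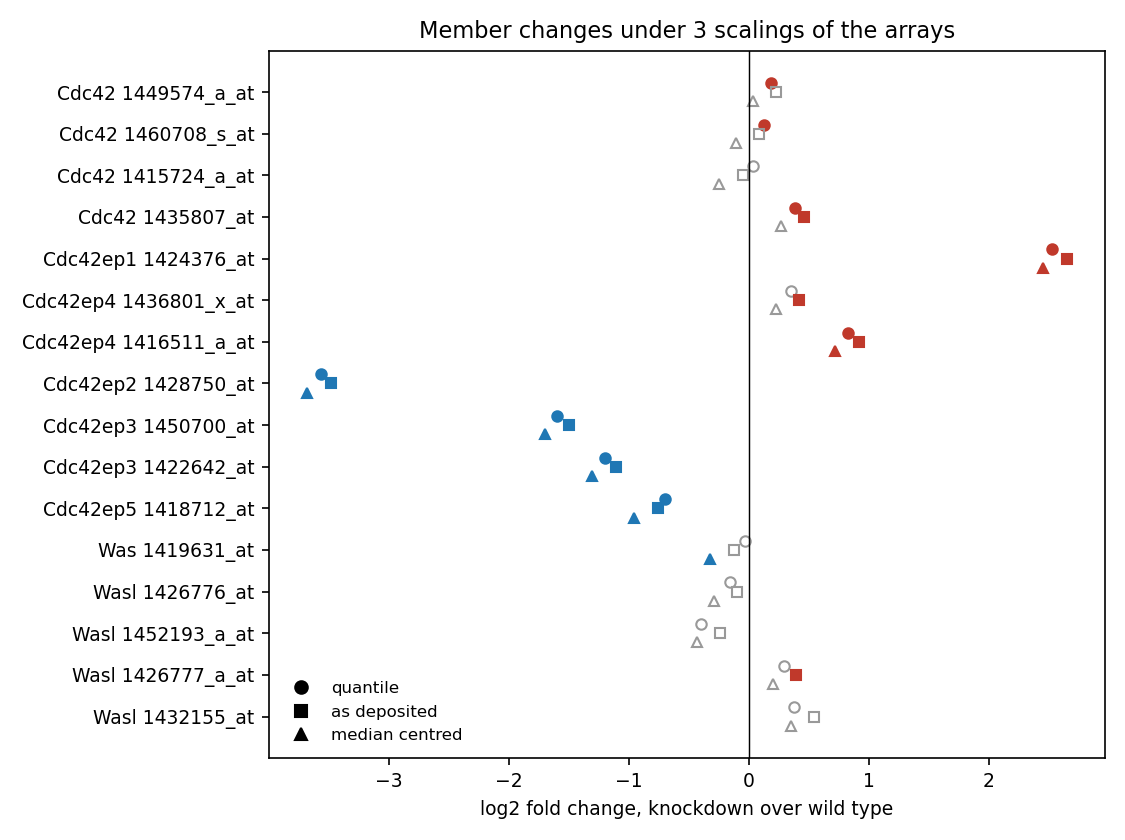
Log2 fold change of knockdown over wild type for the 16 tested probe sets under quantile normalization (circles), as deposited (squares) and centred on array medians (triangles), filled where called. The 5 probe sets of Cdc42ep1, Cdc42ep2, Cdc42ep3 and Cdc42ep5 keep their side of 0 and their call in all 3, while those of Cdc42 and Was move across or near 0.

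Genes listed as acting before and after Cdc42 and WASP were read from 7 lists by role, each gene by its brightest probe set. Whether each listed gene acts on Cdc42 or WASP in these cells was not tested. Of their 123 tested genes 19 were higher, 33 lower and 71 not called, with a median log2 fold change of -0.06, against 18.3% higher, 17.1% lower and a median of 0.03 over all 14230 genes tested. The lists were drawn up with earlier results of these data known.

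Of 23 exchange factors that load Cdc42 with GTP, 3 were higher and 6 lower, with a median log2 fold change of -0.24. Dock10 read 281.2, 272.1 and 276.6 in knockdown, against 748.3, 691.7 and 641.5 in wild type, a log2 fold change of -1.33 ± 0.11 (SE, adjusted p 9.41e-06, limma), called on 1 of its 2 probe sets. Arhgef7, the beta-PIX exchange factor, changed by -0.69 ± 0.06 (adjusted p 1.42e-05, limma). Arhgef4 changed by 0.83 ± 0.14 (adjusted p 0.00107, limma), a call lost with the mean of its probe sets. Named after their values were seen, Dock8 and Fgd3 were also higher, though neither was called with median centring, and Vav1, Vav2, Vav3 and Mcf2l were also lower, the call of Vav2 being lost in 9 of 16 alternatives and that of Vav3 in 2.

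Of 19 GTPase-activating proteins and GDP dissociation inhibitors, 2 were higher and 5 lower, with a median of -0.05. Arhgap31, known as CdGAP, read 139.1, 128.6 and 171.6 in knockdown, against 428.9, 438.2 and 421.9 in wild type, with knockdown B below background. Its log2 fold change was -1.53 ± 0.16 (SE, adjusted p 5.25e-05, limma), called on 2 of 4 probe sets, or -0.62 with the mean of its probe sets. Srgap2 was lower on 4 of 4 probe sets, with -0.83 ± 0.09 on the brightest (adjusted p 5.01e-05, limma), and Arhgap6 was higher with 0.68 ± 0.07 (adjusted p 4.79e-05, limma), or 0.41 with median centring. Named after their values were seen, Srgap3 was higher, not with median centring, and Arhgap1, Bcr and Arhgdib were lower. The call of Bcr was lost in 5 of 16 alternatives, and that of Arhgdib, at -0.11, was lost in 10 and turned to 0.13 in 1, the values as deposited.

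Of 30 proteins other than Borgs and WASPs that bind active Cdc42, 6 were higher and 5 lower, with a median of 0.07. Fnbp1l, or Toca-1, which links Cdc42 to N-WASP, read 1919.6, 1576.6 and 1659.3 in knockdown, against 674.4, 702.2 and 687.9 in wild type, a log2 fold change of 1.26 ± 0.09 (SE, adjusted p 2.44e-06, limma). Cdc42se2, a small effector, was lower with -1.15 ± 0.13 (adjusted p 9.92e-05, limma), as was the formin Diaph2 with -0.75 ± 0.18 (adjusted p 0.00934, limma), whose call was lost with the mean of its probe sets. Named after their values were seen, Pard6a and Fnbp1 were also lower, with calls lost in 6 and 4 of 16 alternatives, as was Iqgap2 at -0.43, which stood at 0.23 with the mean of its probe sets. Also named later, the other higher genes were Prkci at 0.46, Trip10 at 0.32, Map3k11 at 0.32, Pak2 at 0.30 and Tnk2 at 0.20. Their calls were lost in 1, 4, 7, 6 and 8 of 16 alternatives, in that order, and Tnk2 turned to -0.061 with median centring.

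The septins, the filament-forming GTPases that Borg proteins bind, had 10 tested genes, of which 1 was called, with a median of -0.02. Septin11 read 3688.6, 3398.4 and 3802.3 in knockdown, against 5243.8, 5132.5 and 4991.4 in wild type, a log2 fold change of -0.41 ± 0.05 (SE, adjusted p 0.000248, limma), called on 1 of 4 probe sets, or -0.69 with median centring. Named after their values were seen, the not called septins with bright signals included Septin2 at 0.02, Septin7 at 0.17 and Septin9 at 0.13. Septin8, also named later, was not called on its brightest probe set, at -0.26, but was lower on 1 of 3, at -0.73.

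Of 16 tested WASP-binding proteins, adaptors and upstream kinases, 4 were higher, 10 lower and 2 not called, with a median of -0.26. Nck2, an adaptor that brings WASP proteins to phosphotyrosines, read 1071.1, 1110.3 and 1145 in knockdown, against 4626.5, 4809.8 and 4800.9 in wild type. All its knockdown arrays were close together and far below wild type, with a log2 fold change of -2.03 ± 0.06 (SE, adjusted p 1.26e-08, limma), and 3 of 3 probe sets were lower. The tyrosine kinase Tec read 1628.9, 1614.3 and 1802.6 in knockdown, against 5337.1, 4779.3 and 5191.6 in wild type, a log2 fold change of -1.51 ± 0.07 (adjusted p 1.37e-07, limma). Pstpip2, an F-BAR protein of blood cells related to the WASP binder Pstpip1, read 1968.4, 2059.1 and 2256.2 in knockdown, against 680.9, 671.4 and 582.7 in wild type, a log2 fold change of 1.64 ± 0.09 (adjusted p 4.73e-07, limma).

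The genes of the WIP family, of which Wipf1 encodes WIP, a partner that binds WASP and shields it from breakdown, were named after their values were seen. Wipf1 read 2894.5, 1788.8 and 2019.6 in knockdown, against 4217.4, 4739 and 4738.2 in wild type, a log2 fold change of -0.98 ± 0.14 (SE, adjusted p 0.000407, limma), with 2 of 2 probe sets lower. Wipf3 was at or below background on all 3 knockdown arrays, at 32.8, 49.3 and 34.3, against 197.9, 88.4 and 133.5 in wild type, making it at least 1.47-fold lower (adjusted p 0.00403, limma). Wipf2, at 0.10 ± 0.10, was not called. Also named after their values were seen, Pstpip1, Cttn and Snx9 were higher, the calls of Cttn and Snx9 being lost with median centring.

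Of 13 listed genes of the Arp2/3 complex and its inhibitors, 8 were tested, of which 1 was higher and 3 lower, with a median of -0.12. The lower genes were the subunits Arpc1a, with a log2 fold change of -0.66 ± 0.08 (SE, adjusted p 0.000155, limma), Arpc5, with -0.35 ± 0.04 (adjusted p 0.000128, limma), and Actr3, with -0.28 ± 0.05 (adjusted p 0.00296, limma), the last not called without an intensity trend. The higher gene, named after its values were seen, was Gmfb, a protein that detaches Arp2/3 branches, on 1 of 5 probe sets with 0.28 ± 0.06 (adjusted p 0.00811, limma), a call lost in 3 of 16 alternatives, with values down to 0.03. Also named later, Arpc4 and Arpc2 were not called on their brightest probe sets, but each was lower on 1 of 2, at -0.45 and -0.46. Arpc5l was not called on its brightest either, but was higher on 1 of 3, at 0.32. The list of the related WAVE and WASH complexes also held the separate nucleators Jmy and Whamm. Of its 17 tested genes, 3 were higher and 3 lower, with a median of 0.04. Nckap1, a WAVE subunit, was lower with -0.72 ± 0.07 (adjusted p 2.77e-05, limma), Abi3 lower with -0.65 ± 0.14 (adjusted p 0.00569, limma), and the nucleator Jmy higher on 1 of 3 probe sets with 0.69 ± 0.10 (adjusted p 0.000328, limma), or 0.29 with the mean of its probe sets. Named after their values were seen, Cyfip2 and Brk1 were higher, Brk1 at 0.25 and at -0.042 with median centring, and Washc1 was lower.

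**Figure D4:**
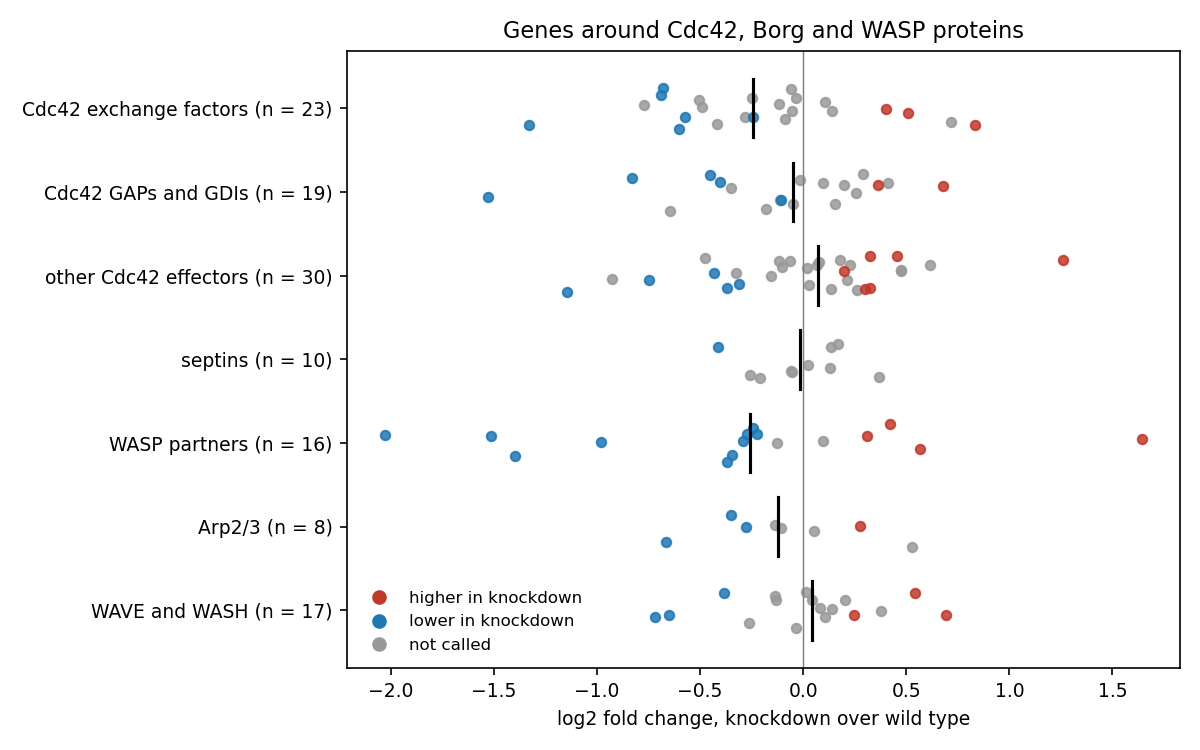
Log2 fold change of knockdown over wild type of the tested genes of 7 lists around Cdc42, Borg and WASP proteins, 1 point a gene, coloured by call, with the list's median as a black bar. The WASP partners hold 10 lower genes among 16, out to -2.03 for Nck2, and the points of the septins run from -0.41 to 0.37.

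The patterns most like that of Cdc42ep2, the gene of largest change among the 8, were sought among 14222 genes by Pearson's r of normalized log2 values over the 6 arrays, given as a description. The highest were Qpct, a glutaminyl cyclase, at 0.9987, Gatad1, a GATA zinc finger domain protein, at 0.9977, the reductase Cyb5r4 at 0.9976, the noncoding Snhg10 at 0.9975 and Prkaa2, a catalytic subunit of AMP-activated kinase, at 0.9974. Like Cdc42ep2 in knockdown, these genes read higher on knockdown C than on knockdown A and B, which follows from choosing them by r. The likeness of Qpct rests on signals not above background in knockdown, as does that of Cdc42ep2 itself on knockdown A and B. The log2 fold changes were -0.42 for Gatad1, -0.32 for Cyb5r4, -0.55 for Snhg10 and -0.98 for Prkaa2, each smaller in size than the bound of Cdc42ep2, and Qpct, at or below background on all 3 knockdown arrays, was at least 1.60-fold lower. With 2 groups far apart, 44 genes had an r above 0.99.

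Was lies near Gata1 on chromosome X in the gene order of GRCm38.p6, with 6 genes between them, of which 2 are protein-coding and 1, Glod5, had a named probe set. Glod5 read 89.9, 87.5 and 35 in knockdown, against 194.7, 130.2 and 192.8 in wild type. The fall was at least 1.75-fold (adjusted p 0.00786, limma), with 2 of 3 knockdown arrays at or below background. Was, beyond it, was not called, as given above.

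Markers of other blood cells moved between the groups as well. Of 19 tested macrophage markers 1 was higher and 16 were lower, with summed signals of 27047 to 28013 on the knockdown arrays, against 51151 to 52564 on the wild-type arrays. Of 21 neutrophil and monocyte markers 2 were higher and 14 lower, with sums of 32193 to 36080 in knockdown and 43692 to 46023 in wild type. For 17 mast cell, basophil and eosinophil markers the counts were 3 higher and 10 lower, with sums of 30224 to 32191 in knockdown and 38571 to 40045 in wild type. That difference rested on Slc6a4, a serotonin transporter that platelets also use: without it, again chosen after the values were seen, the other 16 markers summed to 22372 to 23714 in knockdown and 20665 to 21529 in wild type. This higher knockdown sum leaned in turn on Slc18a2, at 5918.2, 5561.6 and 5097.3 in knockdown, against 1375.9, 1506.5 and 1496.1 in wild type. The sums thus followed a few bright genes, while most called genes of the list were lower. Aif1 of the macrophages and Chil3 and Mmp9 of the neutrophils and monocytes were at or below background on all 3 knockdown arrays. The same held for 8 of the mast cell list, and all of these were at or below it on no more than 2 wild-type arrays. Of these 8, Mcpt1, Mcpt4, Hdc, Mcpt8 and Tpsb2 were called lower. Ms4a2 and Tpsab1 were not called, nor was Fcer1a, which stood at 0.30 and was at or below background on 2 wild-type arrays. Background itself was higher on the knockdown arrays, as given above. Of 15 red cell markers 3 were higher and 7 lower, while 2 of 9 hepatocyte markers and 1 of 12 lymphocyte markers were called, all lower. Xist, the transcript of the inactive X, was higher in knockdown with 0.66 ± 0.05 (SE, adjusted p 4.84e-06, limma), and 3 Y-linked transcripts were not called. Since Was, Wipf1, Tec and Vav1 are also used by such blood cells, the part of these cells in the values above was not tested.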

How the data were processed

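Gene expression was measured on 6 Affymetrix mouse arrays, 3 of Gata-1 knockdown and 3 of wild-type megakaryocytes, grouped by their titles. Values of intensity for 45101 probe sets were deposited on a linear scale by the authors, as the values show. The mean of each column, with 2% trimmed at each end, was 500.0, so a common scaling had been applied. Neither the signal software nor a genome build is given in the sources used here.

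The scale tested was log2(signal + 32). The array medians spanned 0.346 on that scale, above the limit of 0.2, so arrays were quantile normalized. This removes a shift common to all genes, and the offset understates the change of dim genes. The 64 control probe sets and those below the 30th percentile of mean log2 value were left out, which left 31526. Groups were compared with limma 3.58.1 in R 4.3.3, by lmFit and eBayes with an intensity trend, two-sided, with p-values adjusted by Benjamini-Hochberg over all those probe sets and a threshold of 0.05. The number of arrays limits the precision.

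Background was the highest of 27 bacterial control probe sets on each array. A gene at or below it on 2 or 3 arrays of a group has only a bound, from normalized log2 means with that control in place of lower signals. The platform annotation gave 34945 probe sets 1 gene, 932 more than 1 and 9160 no gene, and symbols were updated with a GRCm38.p6 table, used also for gene order and RefSeq promoters. Of 307 list entries, 278 were found on the array and 255 tested, a gene being read from its brightest probe set by mean over 6 arrays. The genes named are the 8 genes, Gata1, up to 3 called genes of largest change per list, the 5 genes most like Cdc42ep2 and those between Gata1 and Was, and the text marks others as chosen later. A further gene list is not reported here. The members and lists were chosen with earlier results of these data known.

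The letters A, B and C recur in both groups, but deviations of same-letter arrays correlated at -0.042 to -0.010, so the letters were not taken as pairs. Identical signals made up at most 0.233% of any 2 arrays of a group. The 3' minus 5' difference of log2 signal was 0.12 to 0.25 for beta-actin and -0.31 to -0.19 for Gapdh. On simulated data with 31526 probe sets tested, changes of 0.5, 1 and 2 on the log2 scale were recovered in 18.8%, 47.7% and 75.6% of cases, with 1 false call. Only 48, 44 and 45 tested probe sets carried these changes, against 30.4% of probe sets called in the data. The recovery rates and the false call therefore do not carry over to the data. The alternatives were offsets of 1 and 100, values as deposited, median centring, no filter, a filter at the 50th percentile, no intensity trend, the letter as a block, signals floored at the bacterial controls, the mean of a gene's probe sets, and each array left out.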

Additional observations from a re-analysis of the deposited data

How the results depend on the processing

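Over 15 alternatives Gata1 stayed between -5.79 and -5.07 on the log2 scale, and 4 or 5 probe sets of the 8 genes were called lower. The number called higher, 5, fell to 2 with median centring, 2 with no filter and 1 with no intensity trend, and was 2 to 4 with 1 array left out. It was 2 without knockdown C, without wild type A and without wild type C. The calls lost were mostly those of Cdc42, and the causes were not tested. Over all probe sets, median centring gave 2609 higher and 5333 lower, against 5062 and 4515, and over the 7 lists it gave 7 higher genes, against 19. Median centring turned the 1460708_s_at probe set of Cdc42 to -0.11, Brk1 to -0.042 and Tnk2 to -0.061, values as deposited turned Arhgdib to 0.13, and the mean of a gene's probe sets turned Iqgap2 to 0.23. With the letter as a replicate block, 4591 probe sets were higher and 4166 lower, and 4 and 4 of the 8 genes' probe sets. The letters were not taken as pairs, and whether the samples were made in pairs is not known here. Dim signals limit Cdc42ep2 in knockdown, which has only a bound, and Cdc42ep1 in wild type, which lay just above the bacterial controls.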
